A study of Mus musculus with 4 samples.

Results

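The genes described here encode costimulatory and checkpoint ligands and related surface molecules through which a B-lineage cell meets T cells, NK cells and macrophages. They are *Cd80*, *Cd86*, *Icosl*, *Cd274*, *Pdcd1lg2*, *Cd69*, *Cd83*, *Cd47*, *Cd48* and *Slamf7*, 10 of the 55359 gene identifiers in the count table. They were chosen by name as a family, with earlier results of these data known, so their calls are not those of an independent sample of genes. All 10 were matched by Ensembl identifier to GENCODE M21. RNA was sequenced from T8, a precursor B cell acute lymphoblastic leukemia (pB-ALL) line grown out from the tumor of 1 *Irf4*-/- mouse, so both groups carried the *Irf4*-/- genotype. The cells were transduced with a retrovirus coding for GFP alone (empty vector, EV-RV, 2 libraries) or for GFP plus the transcription factor IRF4 (IRF4-RV, 2 libraries), and viable cells were collected 24 h later. The replicates are biological according to the design text, but 1 line was used, so p-values measure the spread between these libraries and not between tumors. The labels do not say whether GFP+ cells were sorted, and the protocol text names another line, T11, where the titles and tissue labels name T8.

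As background, a T cell that recognizes antigen needs a further signal to respond, and this comes from ligands of the B7 family on the presenting cell. CD80 and CD86 engage CD28 or its inhibitory relative CTLA-4, ICOS ligand engages ICOS, and PD-L1 (*Cd274*) and PD-L2 (*Pdcd1lg2*) engage the inhibitory receptor PD-1. CD47 signals through SIRPα on macrophages to restrain phagocytosis, CD48 and SLAMF7 are adhesion and signaling receptors of the SLAM family, and CD69 and CD83 are surface antigens that rise when lymphocytes are activated.

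Library totals were 31230223 to 37817752 counts. *Irf4*, the gene supplied by the vector, had 8070 and 7600 counts in EV-RV and 95578 and 90693 in IRF4-RV, a rise in the direction of the labels (log2 fold change 3.46 ± 0.0907, SE, n = 2 per group, adjusted p = 1.14e-06, edgeR quasi-likelihood test with Benjamini-Hochberg adjustment, used for every adjusted p here). The EV-RV level was high for cells labelled *Irf4*-/-, at the 90.5 percentile of TPM among tested genes. The counts cover the whole gene and do not separate vector transcripts from those of the disrupted locus. Of 14637 genes that passed the low-count filter, 29.7% were called at an adjusted p under 0.1, 16.0% higher and 13.7% lower in IRF4-RV. Of 8 B-lineage markers, 7 were at 3316 counts (*Ebf1*) or more in every library, with *Cd79a* and *Cd79b* at 9245 or more. The other, *Rag1*, had 1 count or fewer. Of 11 T and NK cell markers, 3 (*Cd8a*, *Ncr1* and *Klrk1*) were at 0. *Cd5* (23 to 50 counts), *Klrb1c* (33 to 54) and *Prf1* (24 to 26) were detected in every library.

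Of the 10 ligand genes, 6 rose in IRF4-RV (*Cd48*, *Cd83*, *Slamf7*, *Cd69*, *Cd47* and *Icosl*), 0 fell, 2 did not pass the test (*Cd80* and *Cd274*) and 2 had too few counts to be tested (*Cd86* and *Pdcd1lg2*). The 6 higher calls stand beside 16.0% of all tested genes called higher. *Cd80* and *Cd48* passed the filter only through their IRF4-RV libraries, so counts and medians over the 8 tested genes describe them and support nothing further. The median log2 fold change of these 8 was 1.21 (range −0.23 to 3.63), beside 0.01 for all genes tested. In 7 of the 10, the 6 called genes and *Cd80*, both IRF4-RV libraries lay above both EV-RV libraries in CPM (counts scaled to library size), a separation seen in 31.3% of tested genes. In bulk RNA, a change in the share of cells that express a gene and a change in RNA per cell cannot be told apart.

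**Figure D1:**
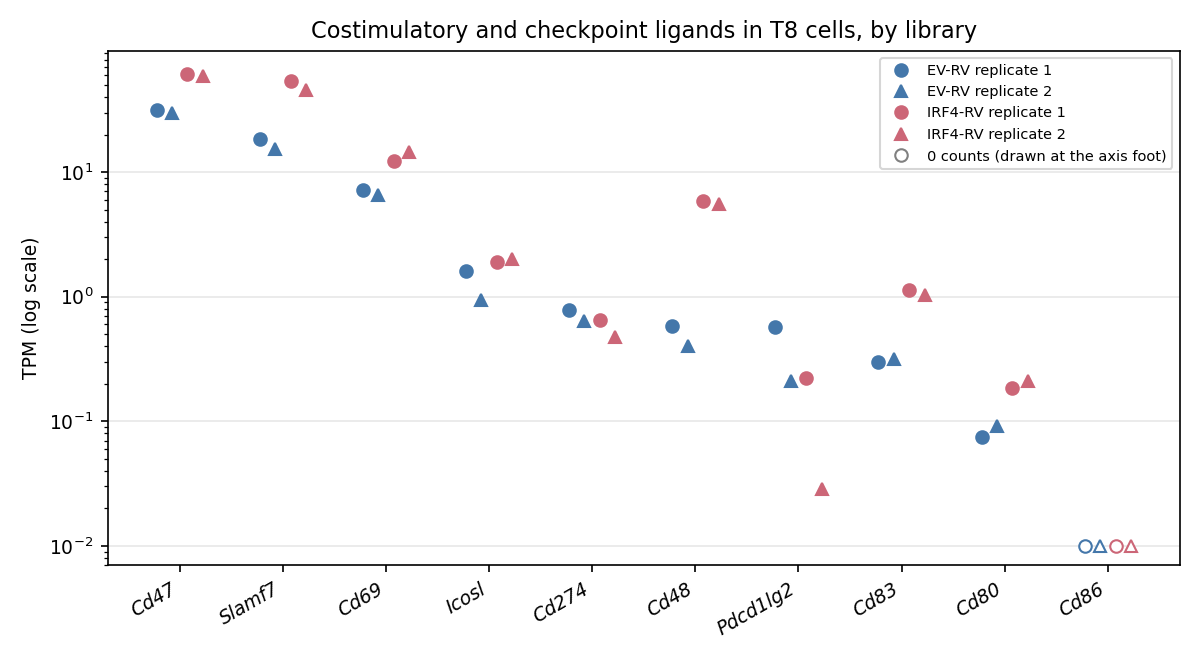
Level of each ligand gene in each library, in TPM (counts scaled to exon length and library size, log axis), ordered by the EV-RV mean, with open symbols for 0 counts. EV-RV libraries are blue and IRF4-RV libraries red. *Cd47*, *Slamf7* and *Cd69* were the 3 highest in both groups, the gap between groups was widest for *Cd48*, and the points of *Cd274* and *Pdcd1lg2* overlapped between groups.

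Per length, the 10 genes spanned a wide range of levels. On the scale of TPM, *Cd47* was highest in both groups, at 31.0 ± 1.20 in EV-RV and 59.8 in IRF4-RV (mean, SD for EV-RV, n = 2). *Slamf7* came next, at 16.9 TPM in EV-RV and 49.5 TPM in IRF4-RV, and *Cd69* after it at 6.82 and 13.4 TPM. The other genes were low, with EV-RV means of 1.28 TPM or less. *Cd48* moved from rank 6 in EV-RV to rank 4 in IRF4-RV, and from the 9.33 to the 39.8 percentile of TPM among tested genes. *Cd83* moved from rank 8 to rank 6 and passed *Cd274*. In EV-RV, *Cd48* and *Pdcd1lg2* overlapped in TPM, as did *Pdcd1lg2* and *Cd83*, so their order is not set by these libraries. In IRF4-RV the same held for *Cd80* and *Pdcd1lg2*.

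Promoter sequence was read from RefSeq (GRCm38.p6), which gave windows of 250 bases before to 50 after a transcription start for 7 of the 10 genes, 8 windows in all. The windows were searched on both strands for the core of an interferon-stimulated response element (ISRE; GAAA, 2 bases, GAAA) and for an ETS-IRF composite element (GGAA, 2 bases, GAAA), the kinds of site at which IRF factors bind alone or with an ETS partner. None of the 8 windows held either, where 3.44% and 2.72% of all 32851 windows did. That says only that these letters are not in these windows. The windows of *Cd47*, *Cd80* and *Slamf7* do not include the GENCODE gene starts given below. Those of *Cd47* begin at chr16:49855404 and chr16:49855411, beside a GENCODE start of chr16:49800533. The windows were also searched for AP-1 (TGA, 1 base, TCA; 7.81% of all windows), for a STAT-type GAS element (TTC, 3 bases, GAA; 8.30%) and for NF-kB (GGG, a purine, 2 bases, 2 pyrimidines, CC; 8.46%). The windows of *Cd274*, *Cd47* and *Cd48* held none of them. The stretches around the matches in the other 4 genes are shown because they are the only matches found, and were picked after the expression values were known. Each is written 5′ to 3′ on the strand of the gene with the match in capitals.
Slamf7 (AP-1, chr1:171649005-171649071, minus strand): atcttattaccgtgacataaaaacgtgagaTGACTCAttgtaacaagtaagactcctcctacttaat
Cd80 (AP-1, chr16:38458861-38458927, plus strand): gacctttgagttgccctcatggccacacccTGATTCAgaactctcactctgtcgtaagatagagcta
Icosl (NF-kB, chr10:78069227-78069296, plus strand): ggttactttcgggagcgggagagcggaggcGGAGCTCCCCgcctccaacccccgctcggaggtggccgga
Pdcd1lg2 (NF-kB, chr19:29410669-29410714, plus strand): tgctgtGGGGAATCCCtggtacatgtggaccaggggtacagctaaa
The AP-1 matches of *Slamf7* and *Cd80* each lay 42 bases before the RefSeq start, and the NF-kB matches lay 111 bases before it in *Icosl*, on the opposite strand, and 244 bases before it in *Pdcd1lg2*. These 4 genes did not share an outcome, since *Slamf7* and *Icosl* were called higher, *Cd80* was not called and *Pdcd1lg2* was not tested. A match is a description of the letters and no binding was measured.

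The classical B7 pair was close to silent. *Cd86* (chr16:36603869-36666081, minus strand) had 0 counts in all 4 libraries, which allows at most 0.0824 to 0.0952 CPM per library, the level of 3 counts. *Cd80* (chr16:38455561-38496335, plus strand) had 4 and 5 counts in EV-RV and 11 and 14 in IRF4-RV, or 0.120 and 0.159 CPM against 0.325 and 0.385 CPM. The groups did not overlap, but the log2 difference of 1.33 ± 0.588 (SE, 95% interval −0.03 to 2.70) missed the threshold (adjusted p = 0.153, edgeR), and at this depth neither a change nor its absence was shown. Floors of 3 counts cover counting error only, while the 95% intervals come from the fit and include the spread between libraries.

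*Icosl* (chr10:78069302-78083913, plus strand), the ligand of ICOS, rose by the smallest margin among the called genes. It had 107 and 64 counts in EV-RV and 142 and 165 in IRF4-RV, or 3.21 and 2.03 CPM against 4.19 and 4.53 CPM. The EV-RV libraries differed from each other more than the IRF4-RV libraries did, and the groups did not overlap. The log2 fold change was 0.73 ± 0.246 (SE, 1.66-fold, adjusted p = 0.0703, edgeR). Without EV-RV replicate 2, the lowest library, it was 0.45 with an adjusted p of 0.241 in edgeR, and the call was also lost in DESeq2 (adjusted p = 0.122).

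The PD-1 ligands showed no higher call. *Cd274* (chr19:29367455-29388095, plus strand) had 41 and 34 counts in EV-RV and 38 and 31 in IRF4-RV, and the groups overlapped in CPM. Its log2 difference was −0.23 ± 0.343 (SE, adjusted p = 0.692, edgeR), and the 95% interval of −1.02 to 0.57 leaves room for a fall as well as a modest rise. An antisense gene, *AC119228.1*, shares 511 exon bases with *Cd274* and had 2 counts or fewer in every library. *Pdcd1lg2* (chr19:29410919-29471161, plus strand) lies 22.8 kb beyond *Cd274* and had 16 and 6 counts in EV-RV and 7 and 1 in IRF4-RV. Its groups overlapped, and it did not pass the low-count filter. In a fit with no filter beyond 1 count, its log2 difference was −1.51 with an adjusted p of 0.314 in edgeR. Without IRF4-RV replicate 1 it passed the filter and was called lower (log2 fold change −3.47, adjusted p = 0.0962, edgeR), a call that then rests on 1 IRF4-RV library with 1 count. It was not called without IRF4-RV replicate 2 (−0.69, adjusted p = 0.726, edgeR) or without EV-RV replicate 2 (−2.02, adjusted p = 0.313, edgeR), and without EV-RV replicate 1 it did not pass the filter. *A930007I19Rik*, an antisense gene over *Pdcd1lg2* that shares 0 exon bases with it, had 8 to 31 counts per library.

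Both activation antigens rose. *Cd69* (chr6:129267325-129275436, minus strand), a C-type lectin that retains lymphocytes in tissue by drawing the sphingosine-1-phosphate receptor S1PR1 from the surface, had 20.0 and 19.6 CPM in EV-RV and 38.2 and 46.3 CPM in IRF4-RV. The EV-RV libraries were nearly level and both IRF4-RV libraries were well above them. The log2 fold change of *Cd69* was 1.09 ± 0.114 (SE, 2.13-fold, adjusted p = 0.000474, edgeR). *Cd83* (chr13:43784775-43803132, plus strand), which stabilizes MHC class II and CD86 on the surface of activated B cells and dendritic cells, had 11 and 12 counts in EV-RV and 47 and 48 in IRF4-RV. The separation was clean at low depth, and the log2 fold change was 1.92 ± 0.386 (SE, 3.78-fold, 95% interval 1.02 to 2.82, adjusted p = 0.0101, edgeR). Per length, *Cd83* stood at 1.08 TPM in IRF4-RV against 13.4 TPM for *Cd69*.

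*Cd47* (chr16:49800533-49915010, plus strand) had the smallest standard error of the 8 tested genes. It had 86.1 and 87.6 CPM in EV-RV and 183 and 182 CPM in IRF4-RV, and the replicates of a group were nearly level. The log2 fold change was 1.07 ± 0.0719 (SE, 2.10-fold, adjusted p = 4.90e-05, edgeR), with a range of 1.04 to 1.08 when each library was left out in turn. On the TPM scale it went from the 73.7 to the 85.0 percentile of tested genes.

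The SLAM family pair held the largest fold change and the lowest adjusted p of the 8 tested genes. *Slamf7* (chr1:171632403-171653035, minus strand), a homophilic receptor found on plasma cells and NK cells, had 1218 and 1023 counts in EV-RV and 3971 and 3729 in IRF4-RV. These were 36.5 and 32.5 CPM against 117 and 102 CPM, with no overlap, and the log2 fold change was 1.67 ± 0.103 (SE, 3.18-fold, adjusted p = 3.36e-05, edgeR). *Gm37787*, an antisense gene that shares 423 exon bases with *Slamf7*, had 11 counts or fewer in every library. *Cd48* (chr1:171682009-171705258, plus strand), the ligand of 2B4 (*Cd244a*) and CD2, lies 29.0 kb from *Slamf7* and had 10 and 7 counts in EV-RV and 113 and 118 in IRF4-RV. It went from about the low-count cutoff of 0.301 CPM (0.300 and 0.222 CPM) to 3.34 and 3.24 CPM. The log2 fold change of *Cd48* was 3.63 ± 0.322 (SE, 12.4-fold, 95% interval 2.89 to 4.38, adjusted p = 0.000217, edgeR), the largest of the 8, and it was 3.44 to 3.86 when each library was left out in turn.

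**Figure D2:**
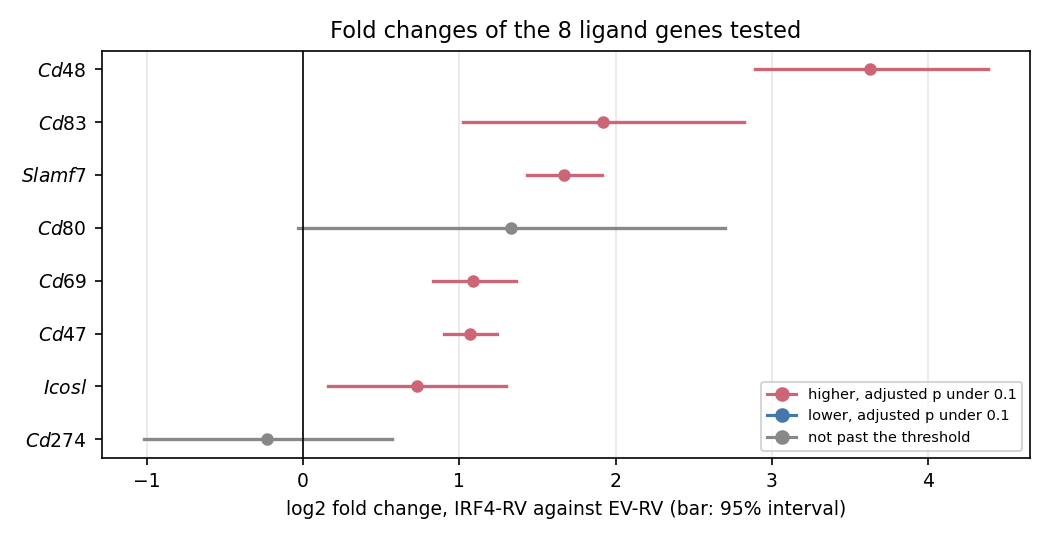
Log2 fold change, IRF4-RV against EV-RV, of the 8 ligand genes tested, with 95% intervals from the edgeR fit (n = 2 per group). Red marks genes called higher at an adjusted p under 0.1 and gray those not called, and no gene was called lower. The intervals of *Cd80* and *Cd274* cross 0, and those of *Cd48* and *Cd47* do not overlap each other.

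*Slamf7* and *Cd48* lie among SLAM family genes on chromosome 1 that span 1031 kb, and the other genes there did not move alike. In order along the chromosome, *Cd244a* and *Ly9*, which overlap on opposite strands with 0 shared exon bases, precede *Slamf7* and *Cd48*, and *Slamf1*, *Cd84*, *Slamf6*, *Slamf9* and *Slamf8* follow them. A gap of 522.2 kb lies between *Slamf6* and *Slamf9*. *Slamf9* rose by 1.25 ± 0.125 on the log2 scale (SE, adjusted p = 0.000378, edgeR), from 11.2 and 10.5 TPM to 22.6 and 25.0 TPM. *Slamf6* (Ly108), a homophilic receptor, rose by 0.50 ± 0.0894 (SE, adjusted p = 0.00602, edgeR). The log2 differences of the genes next to the pair were not called. They were 0.20 for *Ly9* (adjusted p = 0.209) and 0.46 for *Slamf1* (adjusted p = 0.175), both from edgeR, and −0.10 for *Cd84* and 0.42 for *Cd244a* farther out. *Ly9* was called higher in 2 of the 10 alternative fits, without EV-RV replicate 1 (0.31, adjusted p = 0.0777, edgeR) and with the replicate number as a block (adjusted p = 0.0283, edgeR). *Slamf8* was at 0 counts in all 4 libraries. Of the signaling partners of these receptors, the kinase gene *Fyn* had a log2 difference of 0.25 that was not called (adjusted p = 0.156, edgeR), and the adaptor genes *Sh2d1a*, *Sh2d1b1* and *Sh2d1b2* had 2 counts or fewer in every library.

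**Figure D3:**
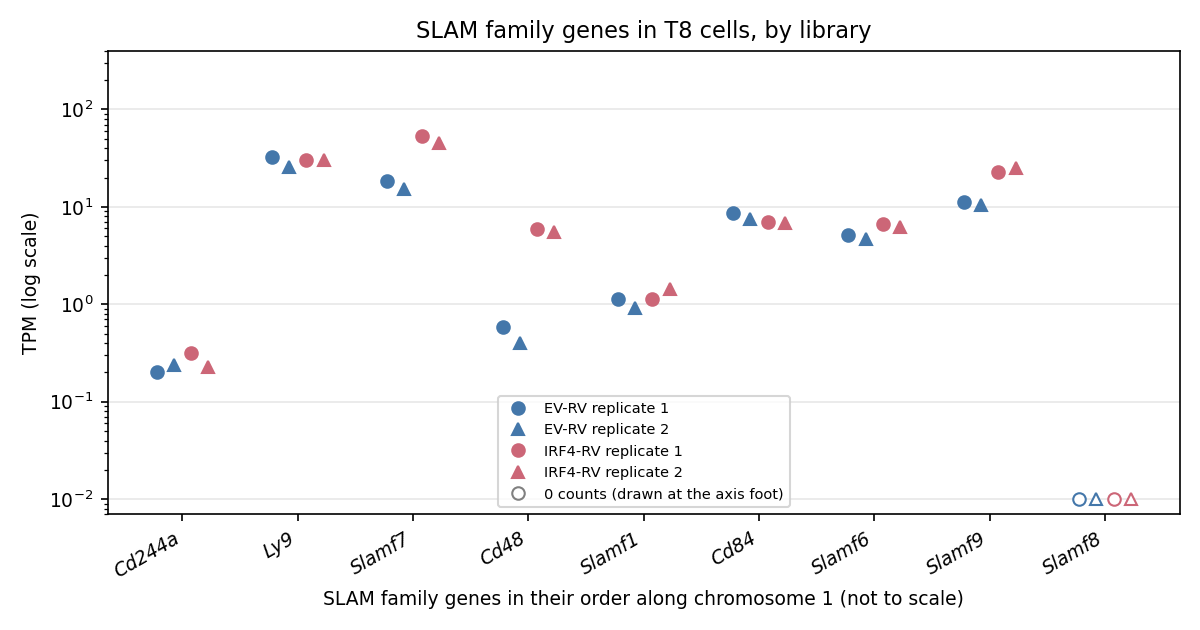
TPM (log axis) of the 9 SLAM family genes in each library, in their order along chromosome 1 and not to scale, with open symbols for 0 counts. EV-RV libraries are blue and IRF4-RV libraries red. The groups stand apart at *Slamf7*, *Cd48* and *Slamf9*, lie close together at *Ly9*, *Slamf1* and *Cd84*, and *Slamf8* was not detected.

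*Cd69* sits at one end of a stretch of C-type lectin genes on chromosome 6, in which the genes listed here span 613.1 kb, and there the directions were mixed. Of the listed genes with counts, the 3 nearest to *Cd69* rose, beside 16.0% called higher and 13.7% called lower of all tested genes. *Clec2d*, which encodes a ligand of inhibitory NKR-P1 receptors on NK cells, had 146 and 92 counts in EV-RV and 334 and 299 in IRF4-RV (log2 fold change 1.30, adjusted p = 0.00385, edgeR). *Klrb1f*, an NKR-P1 family receptor gene, had 11 counts in each EV-RV library and 59 and 56 in IRF4-RV (log2 fold change 2.26, adjusted p = 0.00408, edgeR). *Clec2f* had 3 and 1 counts in EV-RV and 37 and 30 in IRF4-RV, at least 10.4-fold higher against a floor of 3 counts per library. *Clec2f* passed the low-count filter only through IRF4-RV, so it could add only to the higher calls. *Clec2i*, which encodes a ligand of NKR-P1 receptors, went the other way. It had 45.6 and 42.7 TPM in EV-RV and 12.6 and 12.1 TPM in IRF4-RV, a log2 fold change of −1.71 ± 0.086 (SE, adjusted p = 1.42e-05, edgeR). *BC035044*, on the opposite strand, overlaps *Clec2i* with 0 shared exon bases. That gene had 560 and 621 counts in EV-RV and 3513 and 3841 in IRF4-RV. *Clec2e* and *Clec2g* were at 0 counts and *Clec2h* at 1 count or fewer. The *Clec2* genes are close relatives, and how reads shared between them were counted is not given in the sources used here, so their separate values are uncertain. *S1pr1*, the partner that CD69 removes from the surface, rose by 0.69 on the log2 scale (adjusted p = 0.00397, edgeR).

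Beyond these, a list of 60 further genes of costimulation and checkpoints, which includes the SLAM and lectin neighbors above, was grouped by role. This list too was chosen with earlier results of these data known. Of the 60, 33 were tested, 17 rose, 4 fell and 12 did not pass the test, beside 16.0% called higher and 13.7% called lower of all tested genes. The median log2 fold change of the 33 was 0.49, beside 0.01 for all genes. *Cd276*, *Vsir*, *Pdcd1* and *Clec2f* passed the low-count filter only through their IRF4-RV libraries and could add only to the higher calls. *Btnl2* passed it only through EV-RV and was not called. So these counts and this median, and those of the groups that hold these genes, are descriptions and support nothing further. Of 7 other B7 and butyrophilin ligands, 3 were tested and 2 rose, both of which had passed the filter only through IRF4-RV. *Vsir*, which encodes the inhibitory B7 relative VISTA, had 0 and 1 counts in EV-RV and 57 and 54 in IRF4-RV, at least 17.1-fold higher against the floor of 3 counts per library (adjusted p = 0.000673, edgeR). *Cd276* (B7-H3) had 4 and 8 counts in EV-RV and 21 and 44 in IRF4-RV, and it rose by 2.28 on the log2 scale (adjusted p = 0.0272, edgeR). This call was lost without IRF4-RV replicate 2 (1.72, adjusted p = 0.179, edgeR) and without EV-RV replicate 1 (1.83, adjusted p = 0.162, edgeR).

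Of 7 TNF family ligands, 3 were tested, 0 rose and 1 fell, beside 16.0% called higher and 13.7% called lower of all tested genes. *Tnfsf4*, which encodes OX40 ligand, had 6.12 and 5.46 TPM in EV-RV and 0.638 and 0.817 TPM in IRF4-RV. That was a log2 fold change of −2.86 ± 0.251 (SE, adjusted p = 0.000205, edgeR), opposite in sign to the 6 called ligand genes. *Tnfsf8* (CD30 ligand) and *Tnfsf9* (4-1BB ligand) had log2 differences of −0.16 and 0.05 and were not called, and *Cd70* was at 0 counts. *Tnfsf9* shares 192 exon bases with *Gm11110* (28 to 47 counts per library), and how reads over them were counted is not given. Of 8 other inhibitory and adhesion ligands, 5 were tested and 4 rose, beside the same 16.0% called higher of all tested genes. *Ceacam1*, which encodes an adhesion molecule that also binds TIM-3, rose 2.85-fold (adjusted p = 7.50e-05, edgeR). *Lgals9*, which encodes galectin-9, a ligand of TIM-3, was among the most abundant transcripts, at 386 and 382 TPM in EV-RV and 734 and 727 TPM in IRF4-RV, and rose by 1.05 ± 0.073 on the log2 scale (SE, adjusted p = 5.79e-05, edgeR). *Tnfrsf14* (HVEM), the ligand of BTLA, rose 1.99-fold (adjusted p = 0.00321, edgeR). *Pvr* rose by 0.60 (adjusted p = 0.0315, edgeR), a call that was lost without EV-RV replicate 1 (0.42, adjusted p = 0.149). *Cd24a*, a ligand of Siglec receptors, had a log2 difference of 0.13 and was not called.

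Of 14 genes for receptors that these ligands engage, 8 had too few counts to be tested, 3 rose, 2 fell and 1 was not called, beside 16.0% of all tested genes called higher and 13.7% lower. *Ctla4* and *Cd226* were at 0 counts and *Icos* at 1 count or fewer. *Pdcd1*, which encodes PD-1, had 12 and 4 counts in EV-RV and 43 and 60 in IRF4-RV, a log2 fold change of 2.56 ± 0.515 (SE, adjusted p = 0.0101, edgeR). It passed the filter only through IRF4-RV, and its log2 fold change was 2.01 to 3.48 when each library was left out in turn. *Tigit*, the inhibitory receptor for PVR, had 35.6 and 28.8 TPM in EV-RV and 50.5 and 42.7 TPM in IRF4-RV and rose by 0.66 on the log2 scale (adjusted p = 0.00686, edgeR). *Cd28*, the receptor for CD80 and CD86, rose by 0.54 (adjusted p = 0.073, edgeR), a call that was lost in 4 of 10 alternative fits. *Btla*, the receptor for HVEM, fell by 0.56 on the log2 scale (adjusted p = 0.00499, edgeR), from 14.2 and 13.1 TPM to 8.57 and 8.38 TPM. *Cd2*, the partner of CD48, fell by 0.31 (adjusted p = 0.0465, edgeR), a call that was lost in 5 of 10 alternative fits, including each fit without 1 library. *Sirpa*, the receptor for CD47, had 7 and 11 counts in EV-RV and 1 and 18 in IRF4-RV and was not called.

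**Figure D4:**
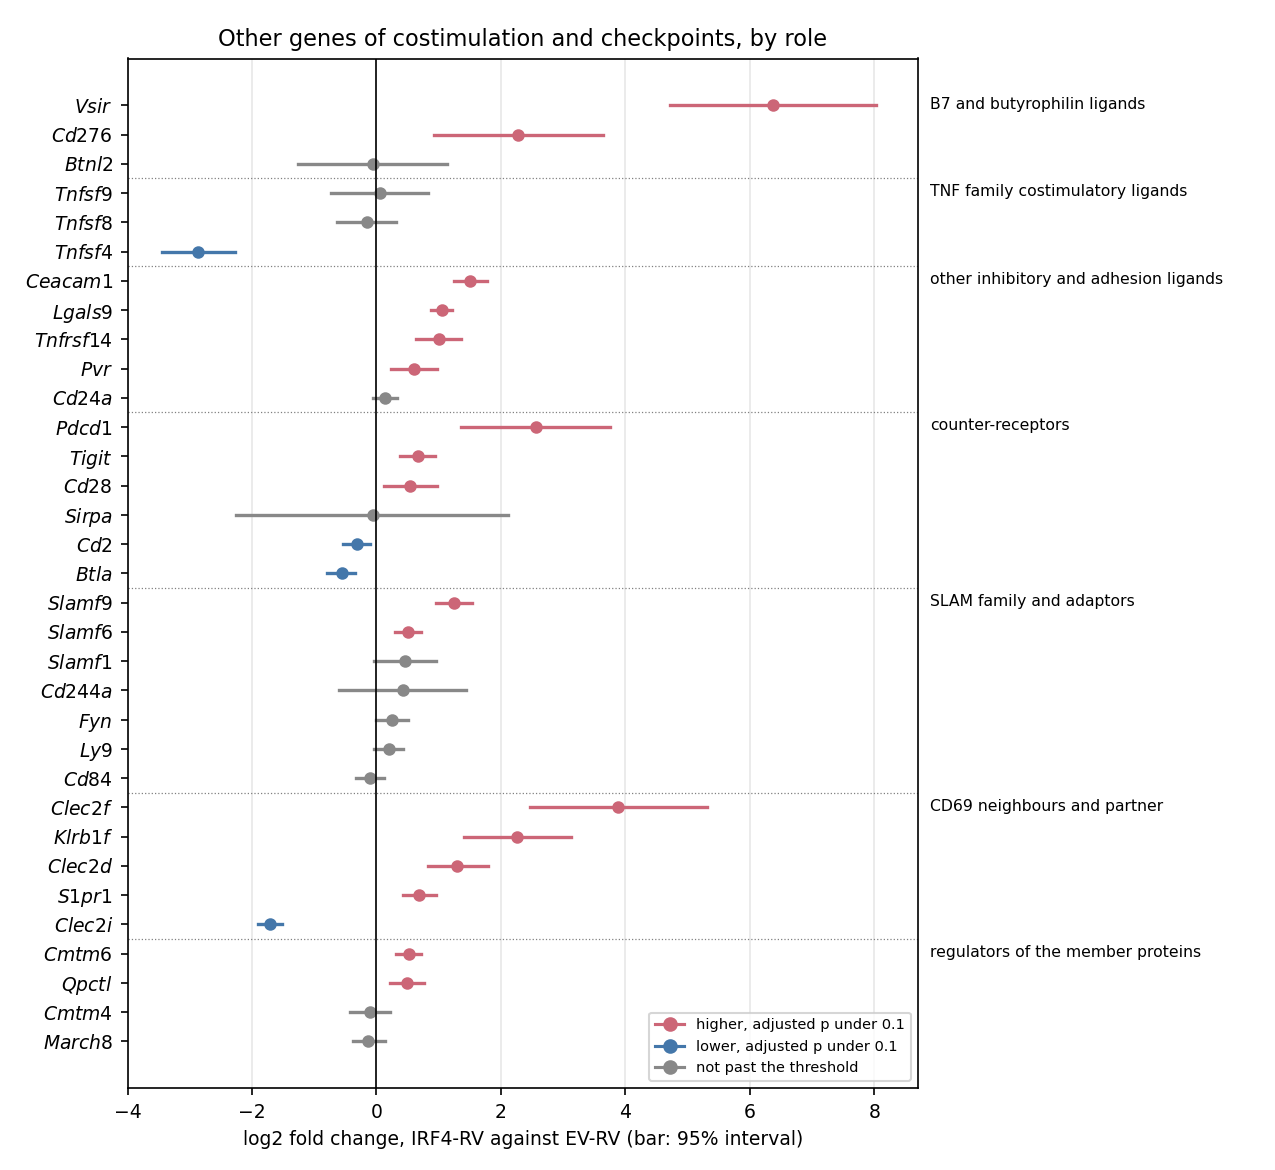
Log2 fold change, IRF4-RV against EV-RV, of the 33 tested genes of the wider list by role, with 95% intervals from the edgeR fit (n = 2 per group). Red marks genes called higher, blue genes called lower and gray genes not called at an adjusted p under 0.1. *Tnfsf4* and *Clec2i* lie farthest to the left. The fitted values of *Vsir* and *Clec2f*, farthest to the right, depend on a prior count because EV-RV was at or under the floor of 3 counts.

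Of 5 genes whose products act on these ligands after transcription, 4 were tested and 2 rose, beside 16.0% called higher of all tested genes. *Cmtm6*, which protects PD-L1 from degradation, rose by 0.52 ± 0.0839 on the log2 scale (SE, adjusted p = 0.00396, edgeR), from 57.8 and 60.4 TPM to 79.0 and 76.8 TPM, while its client *Cd274* was not called. *Qpctl*, the enzyme that modifies CD47 at the site bound by SIRPα, rose by 0.49 (adjusted p = 0.0209, edgeR). The *Qpctl* call was lost without EV-RV replicate 1 (adjusted p = 0.103), and the gene shares 471 exon bases with *Fbxo46*, so some of its reads may belong to that gene. *Cmtm4* and *March8* were not called, with log2 differences of −0.10 and −0.13.

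Other cell types that carry these ligands were checked by their markers. The marker calls below stand beside 16.0% called higher and 13.7% called lower of all tested genes. The macrophage markers *Adgre1* and *Mertk* and the dendritic cell markers *Itgax* and *Siglech* were at 0 counts in every library, and *Clec9a* had 1 count at most. Detected but not called were *Zbtb46* (24 to 37 counts), *Cd68* (15 to 29) and *Fscn1* (27 to 206, highest in IRF4-RV replicate 2). *Xcr1* had 1 and 2 counts in EV-RV and 8 and 15 in IRF4-RV and was not tested. Of 9 dendritic cell markers, 4 were tested and 2 rose, *Ccr7* (log2 fold change 2.79) and *Flt3* (2.41), and the summed level of the list was 47.6 and 51.4 CPM in EV-RV and 323 and 330 CPM in IRF4-RV, nearly all of it *Ccr7*. Of 9 macrophage markers, 7 had 3 counts or fewer in every library and 1, *Mrc1*, rose (3.26), with summed levels of 1.53 and 1.33 CPM against 8.42 and 7.22 CPM. Of 11 T and NK cell markers, 0 were called, and their summed levels were 3.81 and 2.73 CPM against 2.72 and 3.08 CPM. Of 8 B-lineage markers, 7 were tested (all but *Rag1*) and 2 fell, *Vpreb1* (−1.49) and *Igll1* (−1.30), both parts of the surrogate light chain. Of 7 markers of stroma, the kind of feeder cell on which the line was first grown and which it later no longer needed, 0 were called, but their summed level was 41.2 and 76.4 CPM in EV-RV and 41.4 and 185 CPM in IRF4-RV, highest in IRF4-RV replicate 2. Other genes were also highest in that library in CPM, among them *Cd276*, *Sirpa*, *Nectin2* (3 and 9 counts in EV-RV, 6 and 20 in IRF4-RV), *Nectin3* and *Tnfsf18*. So were the ligand genes *Cd69* (38.2 and 46.3 CPM in IRF4-RV), *Icosl* and *Cd80*. In EV-RV, where the stromal sum was higher in replicate 2, *Cd69* had 20.0 and 19.6 CPM and *Icosl* 3.21 and 2.03 CPM. *Cd80* had 0.120 and 0.159 CPM there. The part of stromal RNA in these genes was not tested. Without that library, the log2 fold changes of the 6 called ligand genes ran from 0.68 for *Icosl* to 3.66 for *Cd48*. That fit does not even out the stromal level, since EV-RV replicate 2 was then highest (76.4 CPM, beside 41.2 and 41.4 CPM).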

How the data were processed

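The authors deposited 1 table of raw counts per Ensembl gene for the 4 libraries. Per the labels, the counts were made with STAR 2.4.0j and featureCounts on GRCm38, after FastQC 0.11.2, and the authors compared groups with DESeq2 1.22.1. Strand and multi-mapping settings of the counting are not given in the sources used here. Of 55359 identifiers, 52083 were matched to GENCODE M21 for symbols, exon lengths and positions, and 3276 were not.

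Counts were analyzed in R 4.3.3 with edgeR 4.0.16 (TMM factors, filterByExpr with a minimum count of 10, quasi-likelihood test of IRF4-RV against EV-RV, no covariate, all 14637 genes that passed). Genes were called at a Benjamini-Hochberg adjusted p under 0.1 over all tested genes. The SE is the absolute log2 fold change divided by the square root of F, and intervals are at 95%. CPM uses TMM-scaled library sizes, TPM divides counts by GENCODE exon length, and neither was tested. The edgeR fit alone was checked on simulated counts, for recovery and direction of known changes. The replicates of each group differed by more than counting noise.

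All 10 members are named. Of the wider list, genes past the threshold are named by role, rises before falls and the largest change first, except that genes of the lectin stretch follow their distance from *Cd69*, and some uncalled genes are named for their place in a locus or as a partner. Members, lists and motifs were chosen with earlier results of these data known. Alternatives were library size only, DESeq2 size factors, DESeq2 1.42.0, 2 other low-count filters, a replicate block, an FDR of 0.05 and each library left out. RefSeq start sites can differ from the GENCODE gene starts given.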

Additional observations from a re-analysis of the deposited data

How the results depend on the processing

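Of the 8 tested ligand genes, 7 kept their direction and their side of the threshold in every alternative that gave a value. *Cd80* had no adjusted p in DESeq2 and did not pass the filter of a CPM of at least 1 in 2 libraries. *Icosl* was the exception. Its call was lost with library size only (log2 fold change 0.64, adjusted p = 0.131, edgeR), in DESeq2 (0.73, adjusted p = 0.122), without EV-RV replicate 2 (0.45, adjusted p = 0.241, edgeR) and at an FDR of 0.05. The count of ligand genes called higher was 5 or 6 in every alternative. The count called lower was 0 to 1 when each library was left out, and the 1 was *Pdcd1lg2* without IRF4-RV replicate 1. In fits without a library, the lone library of a group is assumed to vary like the other group. The count over all genes fell from 4349 to between 3573 and 3646 in those fits and was 3661 in DESeq2.

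With library size only, 37.8% of calls were higher (1743 higher, 2867 lower), against 53.8% in the fit with TMM factors, and the median log2 difference of all genes moved from 0.01 to −0.08. The 5 members called there were still higher. The groups share replicate numbers, but the labels do not say that a number marks a shared culture or day. Deviations of same-numbered libraries correlated at 0.284 across genes. With the replicate block, 6394 genes were called in place of 4349, the same 6 ligand genes rose, and 24 genes of the wider list were called in place of 21, which adds *Ly9*, *Fyn* and *Cd24a*. With 2 libraries per group and under 20 counts per library, *Cd80*, *Cd86* and *Pdcd1lg2* are limited by depth.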
